A study of Homo sapiens with 9 samples.

Results

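Homologous recombination and Fanconi anaemia repair were followed here through 37 genes, found by Ensembl identifier among the 58381 Ensembl genes of each library. All 37 reached at least 1 FPKM (a read count scaled to transcript length and library size) in at least 3 of the 9 libraries and so belonged to the 13777 genes tested. The cells were HK1, a line grown from a human nasopharyngeal carcinoma. They received 100 nM of a non-targeting siRNA (control), an siRNA against E2F1, or an siRNA against E2F3, and total RNA was sequenced 48 h after transfection from 3 libraries per group. The groups are bulk cultures of 1 cell line, and the labels do not say whether replicates came from separate transfections, so the p-values measure the spread between these libraries. Nor do they say how many siRNAs were used per target.

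Homologous recombination repairs a broken chromosome by copying the sister chromatid. Nucleases trim the broken ends to single strands, the BRCA1, PALB2 and BRCA2 proteins load a recombinase onto them, the filament invades the intact duplex, and helicases, topoisomerases and nucleases resolve the joined molecules. The Fanconi anaemia pathway removes crosslinks between DNA strands: a multi-subunit ubiquitin ligase, the core complex, marks the FANCD2 and FANCI pair, and recombination finishes the repair. E2F1 and E2F3 are transcription factors that activate genes needed for S phase, among them many genes of DNA replication and repair.

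Both siRNAs lowered their target. E2F1 was at 19.85, 19.53 and 20.20 FPKM in the controls and at 7.17, 7.95 and 7.33 FPKM after E2F1 siRNA, a log2 difference of -1.30 (SE 0.06, adjusted p = 3.71e-07). E2F3 was at 24.74, 27.17 and 24.42 FPKM in the controls and at 12.61, 10.52 and 11.02 FPKM after E2F3 siRNA, a log2 difference of -1.10 (SE 0.07, adjusted p = 3.58e-06). All differences below are between group means of log2(FPKM + 1), where the added 1 shrinks those of low genes, and adjusted p-values are from limma over all 13777 genes. A gene is said to have risen or fallen where the adjusted p was below 0.05. The absolute sequencing depth is unknown, and the steps between low values put the libraries at 0.856 to 1.21 times the depth of control replicate 1. All 7 markers of squamous epithelium were at 1 FPKM or more in every group, while their summed level was 1450 to 1489 FPKM in the controls, 941 to 1009 after E2F1 siRNA and 855 to 940 after E2F3 siRNA. PTPRC, found on leukocytes, and CD3E, found on T cells, averaged below 1 FPKM in every group. Summed over all 6 leukocyte markers, the level was 18.3 to 27.1, 17.8 to 19.96 and 17.5 to 20.4 FPKM in control, E2F1 siRNA and E2F3 siRNA libraries, and CD68 made up most of that, with LYZ at 7.49 FPKM in control replicate 3. Summed endothelial markers were at 0.29 to 1.87 FPKM. Summed fibroblast markers were at 14.1 to 15.8, 18.2 to 20.8 and 15.1 to 17.6 FPKM in the same order of groups, and COL1A1 made up most of that. The part of these marker changes in the results below was not tested.

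After E2F1 siRNA most of the repair genes did not pass the test, after E2F3 siRNA more fell than rose, and in the direct comparison of the siRNAs every called gene was lower with E2F3 siRNA. After E2F1 siRNA 5 of the 37 rose (RAD51D, FANCE, RAD50, RAD51C and FANCL) and 2 fell (FANCD2 and EXO1). That is 18.9% called, against 37.8% of all tested genes, of which 20.5% rose and 17.3% fell. After E2F3 siRNA 5 rose (RAD51D, FANCF, NBN, FANCC and RAD50) and 12 fell, or 45.9% called against 37.6% of all tested genes. The share that fell was 32.4% against 16.4% of all tested genes, and the share that rose was 13.5% against 21.1%. With E2F3 siRNA set against E2F1 siRNA, 13 genes were lower, 35.1% of the 37 against 22.0% of all tested genes. No gene of the 37 was higher by limma at that threshold, against 23.5% of all tested genes called higher and 45.5% called in either direction. At an unadjusted p below 0.05 in limma, 3 of the 37 genes and 3736 of the 13777 tested genes were higher. The median log2 difference of the 37 genes was 0.09, -0.12 and -0.07 in the 3 comparisons, beside 0.03, 0.04 and 0.02 over all tested genes. The comparisons with control share the control libraries, so the direct comparison is the test of a difference between the siRNAs.

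Gene by gene, 19 of the 37 were called against control after at least 1 of the siRNAs. RAD50 and RAD51D rose after both, and EXO1 and FANCD2 fell after both. FANCE rose after E2F1 siRNA and fell after E2F3 siRNA. RAD51AP1, RAD54L, TOP3A, RMI1, MUS81, FANCG, FANCM and BRIP1 fell after E2F3 siRNA and were also lower than after E2F1 siRNA. BLM, BRCA1 and XRCC3 were called in the direct comparison and in neither comparison with control. For 15 genes no comparison passed the test. The absolute log2 differences of called genes ran from 0.17 to 0.83, all under a doubling on this scale.

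**Figure D1:**
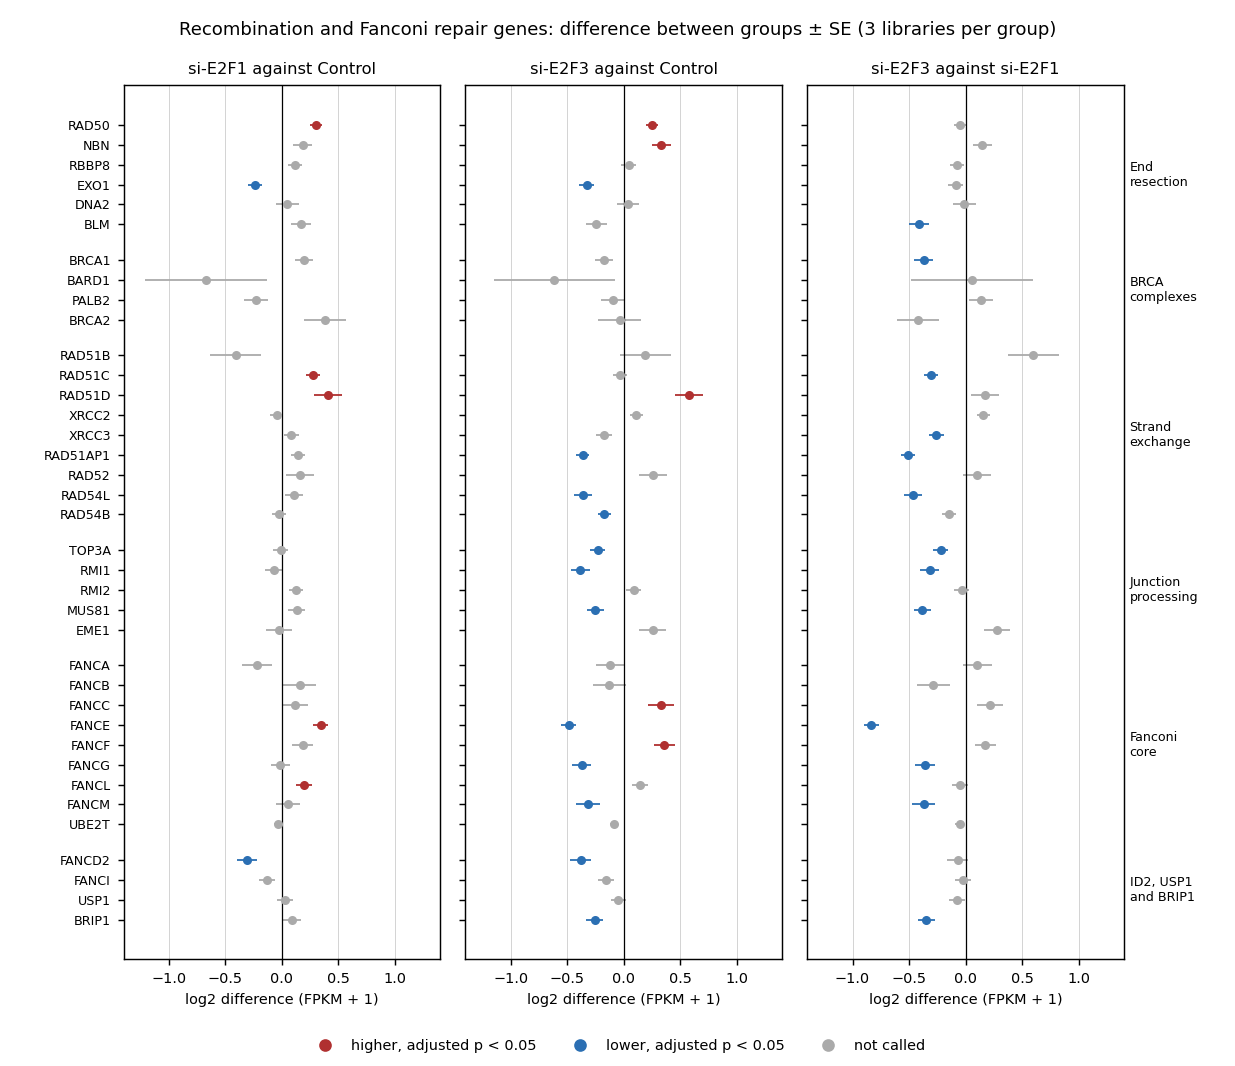
Log2 difference of log2(FPKM + 1) for each of the 37 genes (points, with SE as bars), grouped by role, in E2F1 siRNA against control, E2F3 siRNA against control and E2F3 siRNA against E2F1 siRNA, 3 libraries per group. Red points rose and blue points fell at an adjusted p below 0.05, grey points were not called: 5 red and 2 blue on the left, 5 red and 12 blue in the middle, 0 red and 13 blue on the right.

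The levels spanned the range of moderately expressed genes. FPKM is scaled to transcript length, so levels of different genes can be set side by side. Control means ran from 1.60 FPKM for FANCF to 93.1 FPKM for UBE2T, with a median of 21.1 FPKM, beside 12.8 FPKM over all tested genes. UBE2T and FANCI, with control values that did not overlap, stood above RAD51AP1 and XRCC3, whose control values did overlap each other (64.02 to 66.92 and 59.88 to 65.96 FPKM). Exons of KLC1, at 64.6 FPKM in the controls, cover 76.7% of the exon bases of XRCC3 on the other strand. Whether the counting used strand is not given, so the level and rank of XRCC3 may include reads of KLC1. FANCF and BRCA2 were lowest, and the control values of BRCA2 (3.06 to 5.74 FPKM) overlapped those of FANCM above it (5.42 to 6.34 FPKM).

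**Figure D2:**
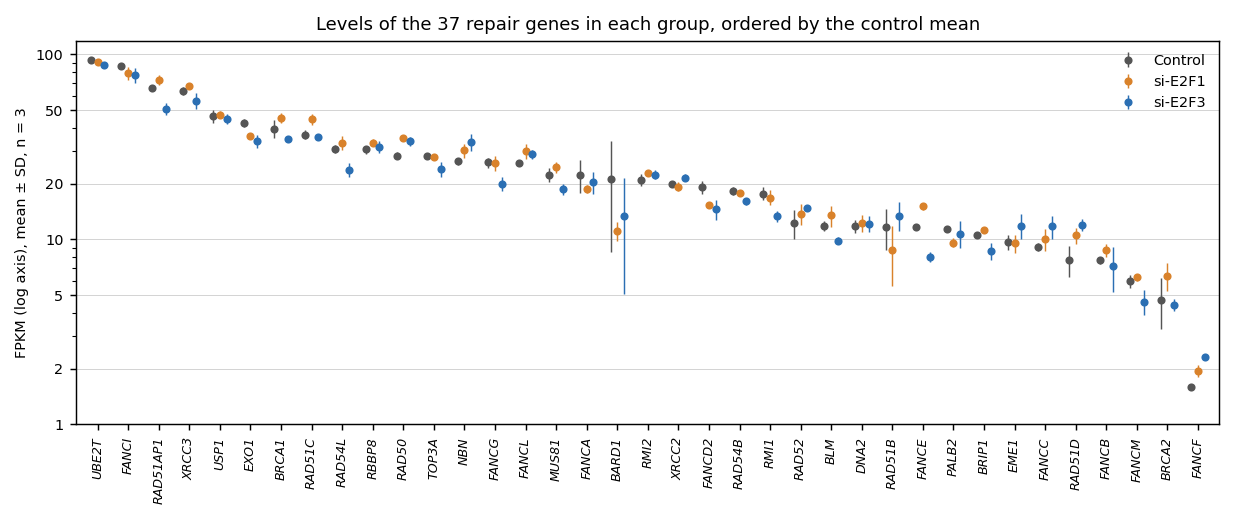
Mean FPKM ± SD of each gene in control, E2F1 siRNA and E2F3 siRNA libraries (n = 3 each, log axis), ordered by the control mean from UBE2T (93.1 FPKM) to FANCF (1.60 FPKM). The bars of BARD1 are the longest, with a control SD of 12.7 FPKM.

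Promoter sequences are shown because E2F proteins bind short sites near start sites and because several of these genes moved together. RefSeq promoters (GRCh38.p14, 250 bases before to 50 after a start site) were on hand for 32 of the 37 genes. The E2F core was searched on both strands as TTTCCCGC, TTTCGCGC, TTTGCCGC or TTTGGCGC. It was present for 6 of the 32 genes (18.8%), against 6.73% of 9777 tested genes with a promoter and 3.31% of all 35116 promoters of that length. The 6 are EXO1 and FANCD2, which fell after both siRNAs, RMI1, which fell after E2F3 siRNA, FANCC, which rose after E2F3 siRNA, and FANCA and XRCC2, called in no comparison. The matches follow on the strand of the gene with 10 bases on either side, and capitals mark the match.
EXO1, chr1:241848198-241848225, plus strand: aaggtcagccTTTCGCGCgctgtgtagg
FANCD2, chr3:10026425-10026452, plus strand: gtcgggcctgGCGGGAAAgtcgaaaact
RMI1, chr9:83980763-83980790, plus strand: gcgcgagcgcGCGGCAAAtcgggcggga
FANCC, chr9:95317738-95317765, minus strand: tcgtcggaatTTTCCCGCgacgccgcgg
FANCC, chr9:95317864-95317891, minus strand: cggggcttccGCGCGAAAccgggaacac
FANCA, chr16:89816802-89816829, minus strand: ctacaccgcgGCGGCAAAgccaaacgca
XRCC2, chr7:152676103-152676130, minus strand: ggcgttggtgGCGGGAAAgttgagtctc
Where the capitals read GCGGGAAA, GCGCGAAA or GCGGCAAA, the core lies on the other strand. The CCAAT box, searched as CCAAT on both strands, was present for 14 of the 32 genes (43.8%), against 43.6% of tested genes with a promoter. The CHR element, a site of cell cycle genes searched as TTTGAA on both strands, was present for 4 (12.5%), against 13.7%. A match is a description of letters in this window and not a binding site.

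The promoters of the genes with the largest called changes are given whole, with an E2F core in capitals where one was found. They are FANCE (largest fall with E2F3 siRNA), RAD51D (largest rise with either siRNA) and FANCD2 (largest fall with E2F1 siRNA). RefSeq lists a pair of start sites for RAD51D, and the more upstream is shown.
FANCE, chr6:35452088-35452387, plus strand: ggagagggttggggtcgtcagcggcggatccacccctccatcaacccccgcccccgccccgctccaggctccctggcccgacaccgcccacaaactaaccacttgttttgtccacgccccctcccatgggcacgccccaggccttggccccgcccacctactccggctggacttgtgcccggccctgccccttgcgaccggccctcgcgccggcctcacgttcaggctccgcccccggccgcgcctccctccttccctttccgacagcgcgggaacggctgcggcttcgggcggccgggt
RAD51D, chr17:35119811-35120110, minus strand: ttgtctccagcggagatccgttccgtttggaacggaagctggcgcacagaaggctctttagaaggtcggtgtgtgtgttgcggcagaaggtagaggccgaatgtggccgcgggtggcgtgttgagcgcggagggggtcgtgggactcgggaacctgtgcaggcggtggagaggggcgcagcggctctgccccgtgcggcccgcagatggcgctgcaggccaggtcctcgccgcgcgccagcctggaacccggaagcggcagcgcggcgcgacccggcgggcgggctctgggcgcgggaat
FANCD2, chr3:10026187-10026486, plus strand: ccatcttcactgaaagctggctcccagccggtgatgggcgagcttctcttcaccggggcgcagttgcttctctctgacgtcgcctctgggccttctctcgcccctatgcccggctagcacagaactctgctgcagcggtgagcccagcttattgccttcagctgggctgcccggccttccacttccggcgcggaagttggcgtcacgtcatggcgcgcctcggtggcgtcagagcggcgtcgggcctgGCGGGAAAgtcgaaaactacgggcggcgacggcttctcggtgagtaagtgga
None of the 3 held a CCAAT box or a CHR element. Their GC content was 73.7% for FANCE, 70.3% for RAD51D and 64.7% for FANCD2.

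Among the 6 genes of end resection, RAD50 rose and EXO1 fell after both siRNAs, while NBN rose after E2F3 siRNA. RAD50 and NBN encode subunits of the complex that recognises broken ends and starts resection. RAD50 was at 27.77, 29.72 and 27.65 FPKM in the controls, at 36.05, 35.23 and 34.27 FPKM after E2F1 siRNA and at 34.71, 31.82 and 35.30 FPKM after E2F3 siRNA. All 6 knockdown libraries lay above all 3 controls, with log2 differences of 0.30 (SE 0.05, adjusted p = 0.00176) and 0.25 (SE 0.05, adjusted p = 0.0055). AC116366.3, at 2.34 FPKM in the controls, covers 79.7% of the exon bases of RAD50 on the same strand, so reads may be split between them. NBN was at 26.45, 27.49 and 25.40 FPKM in the controls, at 30.46, 27.49 and 32.90 FPKM after E2F1 siRNA and at 37.46, 30.68 and 32.90 FPKM after E2F3 siRNA. Its rise after E2F3 siRNA was 0.33 (SE 0.08, adjusted p = 0.0111), with no overlap with the controls. After E2F1 siRNA 1 library equalled a control, and the difference of 0.19 was not called (adjusted p = 0.109, and 0.0494 without E2F1 siRNA replicate 2). EXO1, a nuclease that extends the single strand over long distances, was at 44.80, 42.71 and 40.56 FPKM in the controls. It was at 36.12, 36.87 and 35.12 FPKM after E2F1 siRNA and at 36.59, 34.25 and 30.88 FPKM after E2F3 siRNA, below every control in all 6 libraries. The fall was -0.24 (SE 0.07, adjusted p = 0.0165) with E2F1 siRNA and -0.33 (SE 0.07, adjusted p = 0.00341) with E2F3 siRNA. The first was not called without control replicate 1 (-0.20, adjusted p = 0.0634) or E2F1 siRNA replicate 3 (-0.22, adjusted p = 0.0536).

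BLM, the helicase mutated in Bloom syndrome, differed between the siRNAs. It was at 10.97, 12.28 and 12.28 FPKM in the controls, at 12.60, 12.38 and 15.52 FPKM after E2F1 siRNA and at 9.83, 9.42 and 10.33 FPKM after E2F3 siRNA. The groups did not overlap, with every E2F1 siRNA library above and every E2F3 siRNA library below the controls. The direct difference was -0.41 (SE 0.09, adjusted p = 0.00442), whereas the differences from control were 0.17 (adjusted p = 0.169) and -0.24 (adjusted p = 0.0599). The latter was called without E2F1 siRNA replicate 3 (adjusted p = 0.0243), with RLE scaling (-0.28, adjusted p = 0.042) and in a fit of the 6 libraries compared (adjusted p = 0.0369). RBBP8, the cofactor that starts resection, averaged 30.7, 33.4 and 31.7 FPKM in control, E2F1 siRNA and E2F3 siRNA libraries. DNA2, a nuclease of long-range resection, averaged 11.8, 12.3 and 12.2 FPKM. Neither was called in any comparison.

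The 4 genes of the BRCA complexes were not called against control in either comparison. By limma 0 of the 4 passed the adjusted threshold there, and 1 and 0 had an unadjusted p below 0.05 after E2F1 and E2F3 siRNA. BRCA1, which with BARD1 forms a ubiquitin ligase that acts early in recombination, was at 42.25, 42.05 and 34.46 FPKM in the controls. It was at 43.45, 48.75 and 44.25 FPKM after E2F1 siRNA and at 34.30, 36.34 and 34.04 FPKM after E2F3 siRNA. E2F1 siRNA libraries lay above all E2F3 siRNA libraries, and the direct difference was -0.37 (SE 0.08, adjusted p = 0.00411). Against control the differences were 0.20 (adjusted p = 0.0769) and -0.17 (adjusted p = 0.121). Control replicate 3 was the lowest control, and without it the E2F3 siRNA difference was called at -0.27 (adjusted p = 0.0123). BRCA2, which loads the recombinase, was at 3.06, 5.74 and 5.34 FPKM in the controls, at 7.04, 6.92 and 5.07 FPKM after E2F1 siRNA and at 4.37, 4.80 and 4.16 FPKM after E2F3 siRNA. The siRNA groups did not overlap, yet the direct difference of -0.42 (SE 0.19) was not called (adjusted p = 0.0918), and was called with control replicate 1 left out (adjusted p = 0.019) or replicate 3 of E2F1 siRNA left out (-0.55, adjusted p = 0.0494), and in a fit of the 6 libraries compared (adjusted p = 0.0273).

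BARD1 varied more within groups than any other of the 37 genes. It was at 24.38, 32.22 and 7.33 FPKM in the controls, at 11.65, 9.57 and 12.08 FPKM after E2F1 siRNA and at 13.36, 5.05 and 21.58 FPKM after E2F3 siRNA. Control replicate 3 lay below the E2F1 siRNA libraries, so the groups overlapped. The differences of -0.67 (SE 0.54, adjusted p = 0.363) and -0.61 (SE 0.54, adjusted p = 0.4) were about as large as their errors. The difference after E2F1 siRNA was -1.27 without control replicate 3 and -0.27 without control replicate 2. That after E2F3 siRNA was -1.21 without control replicate 3 and -0.09 without E2F3 siRNA replicate 2, and none of these was called. The within-group SD of BARD1 was 0.83 on the log2 scale, above that of 99.2% of 1626 genes of like control level. PALB2, the bridge between BRCA1 and BRCA2, averaged 9.62 FPKM after E2F1 siRNA, and its 3 libraries there lay below all controls (9.31 to 10.24 against 11.04 to 11.93 FPKM). That difference of -0.23 was not called (adjusted p = 0.116), and was called without E2F3 siRNA replicate 2 (adjusted p = 0.0222) and in a fit of the 6 libraries compared (adjusted p = 0.0321). Without the same library the direct difference of PALB2 went from 0.14 to 0.27 and was called (adjusted p = 0.0175).

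In strand exchange, RAD51D rose after both siRNAs, RAD51C rose after E2F1 siRNA, and RAD51AP1, RAD54L and RAD54B fell after E2F3 siRNA. RAD51B, RAD51C, RAD51D, XRCC2 and XRCC3 encode related proteins that help to build and stabilise the recombinase filament. RAD51D was at 7.99, 6.17 and 9.10 FPKM in the controls, at 10.45, 9.55 and 11.59 FPKM after E2F1 siRNA and at 11.49, 12.98 and 11.37 FPKM after E2F3 siRNA. All knockdown libraries were above the controls, by 0.41 (SE 0.12, adjusted p = 0.0259) and 0.58 (SE 0.12, adjusted p = 0.00497). The rise after E2F1 siRNA was not called with control replicate 2 left out (0.27, adjusted p = 0.0711), nor with replicate 1 (0.41, adjusted p = 0.0602) or 3 (0.34, adjusted p = 0.0875) of E2F1 siRNA left out, nor with no filter (adjusted p = 0.0809). RAD51C was at 35.25, 39.21 and 35.98 FPKM in the controls, at 43.64, 48.18 and 42.35 FPKM after E2F1 siRNA and at 37.29, 35.40 and 35.22 FPKM after E2F3 siRNA. It rose by 0.27 (SE 0.06, adjusted p = 0.00602) after E2F1 siRNA, differed from control by -0.03 (adjusted p = 0.717) after E2F3 siRNA, and differed between the siRNAs by -0.30 (SE 0.06, adjusted p = 0.00275).

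RAD51B was scattered within groups, at 9.97, 15.15 and 10.13 FPKM in the controls, 6.49, 12.34 and 7.45 FPKM after E2F1 siRNA and 10.93, 13.79 and 15.68 FPKM after E2F3 siRNA. Replicate 2 was the highest of the E2F1 siRNA libraries, and no comparison was called (direct difference 0.60, SE 0.23, adjusted p = 0.0541). Without E2F1 siRNA replicate 2 the direct difference was 0.85 (adjusted p = 0.00742) and that from control -0.66 (adjusted p = 0.0275). The direct difference was also called without control replicate 2 (adjusted p = 0.0404) or E2F3 siRNA replicate 1 (0.73, adjusted p = 0.0444), with upper-quartile scaling (0.65, adjusted p = 0.042) and with a filter of 5 FPKM (adjusted p = 0.0433). XRCC3 averaged 67.2 FPKM after E2F1 siRNA and 56.2 FPKM after E2F3 siRNA, a difference of -0.26 (SE 0.07, adjusted p = 0.0128). Against control XRCC3 was not called after E2F3 siRNA (-0.17, adjusted p = 0.0764), and was without E2F3 siRNA replicate 2 (-0.25, adjusted p = 0.007) and with RLE scaling (-0.21, adjusted p = 0.0324). Exons of KLC1, on the other strand, cover 76.7% of the exon bases of XRCC3, and whether the counting used strand is not given, so reads of the pair may not be told apart. XRCC2 averaged 19.9, 19.3 and 21.6 FPKM. Its direct difference of 0.16 was not called (adjusted p = 0.0529), and was without E2F1 siRNA replicate 1 (0.20, adjusted p = 0.0339) or E2F3 siRNA replicate 2 (0.19, adjusted p = 0.0381), with upper-quartile scaling (0.20, adjusted p = 0.0158) and with a filter of 5 FPKM (adjusted p = 0.0472).

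RAD51AP1, which stimulates strand invasion, and RAD54L, a motor protein that remodels the filament, showed one pattern. RAD51AP1 was at 64.02, 66.92 and 65.78 FPKM in the controls, at 77.91, 69.05 and 71.06 FPKM after E2F1 siRNA and at 54.99, 48.98 and 48.47 FPKM after E2F3 siRNA. It fell by 0.36 (SE 0.06, adjusted p = 0.00129) after E2F3 siRNA and was 0.14 above control (adjusted p = 0.0909, not called) after E2F1 siRNA. The direct difference was -0.51 (SE 0.06, adjusted p = 0.000117). RAD54L was at 31.01, 32.16 and 29.19 FPKM in the controls, at 32.16, 36.57 and 31.00 FPKM after E2F1 siRNA and at 23.44, 26.04 and 21.88 FPKM after E2F3 siRNA. It fell by 0.36 (SE 0.08, adjusted p = 0.00579) after E2F3 siRNA, and the direct difference was -0.47 (SE 0.08, adjusted p = 0.00103). LRRC41 overlaps 25.1% of the exon bases of RAD54L on the other strand. RAD54B, a relative of RAD54L, went from 18.2 ± 0.911 FPKM (SD, n = 3) to 16.1 ± 0.657 FPKM after E2F3 siRNA. This fall of 0.17 (adjusted p = 0.0439) was lost with any 1 of the 9 libraries left out. The adjusted p then ran from 0.0506 without E2F1 siRNA replicate 2 to 0.153 without control replicate 1. The fall was also lost with upper-quartile scaling (-0.16, adjusted p = 0.0531), no filter (0.0603) and the 6 libraries alone (0.0702). RLE scaling brought a call in the direct comparison (-0.16, adjusted p = 0.0424). FSBP covers 59.1% of the exon bases of RAD54B on the same strand. RAD52, an annealing protein, was at 9.87, 14.20 and 12.62 FPKM in the controls, at 15.78, 12.22 and 13.24 FPKM after E2F1 siRNA and at 15.03, 14.46 and 14.64 FPKM after E2F3 siRNA. It was not called, and was called against control after E2F3 siRNA without control replicate 2 (0.37, adjusted p = 0.0442).

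**Figure D3:**
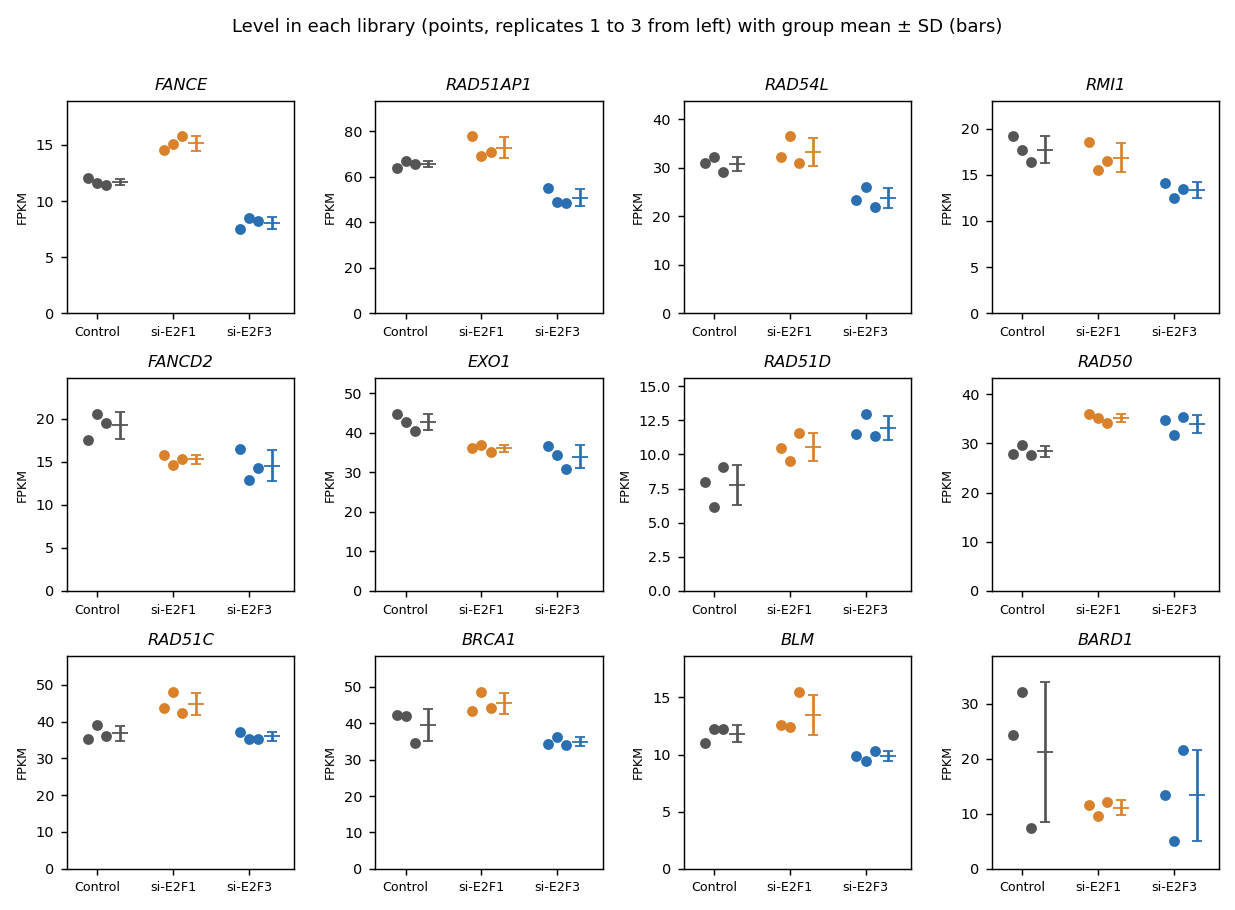
FPKM of 12 genes in each library (points, replicates 1 to 3 from the left) with the group mean ± SD (bars), for control, E2F1 siRNA and E2F3 siRNA. FANCE lies above the controls after E2F1 siRNA (14.52 to 15.80 against 11.44 to 12.02 FPKM) and below them after E2F3 siRNA (7.47 to 8.50 FPKM), while the BARD1 groups overlap.

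Of the 5 genes that process joined molecules, TOP3A, RMI1 and MUS81 fell after E2F3 siRNA and were lower than after E2F1 siRNA. None was called after E2F1 siRNA by limma, where 0 of the 5 had an unadjusted p below 0.05. Of all 13777 tested genes, 16.4% fell after E2F3 siRNA, 22.0% were lower in the direct comparison and 37.8% were called after E2F1 siRNA. At an unadjusted p below 0.05, 3513 were higher and 2896 lower after E2F1 siRNA. Counts over only 5 genes are too small to compare with those shares. TOP3A, RMI1 and RMI2 encode the topoisomerase and its partners, which with BLM separate double Holliday junctions. RMI1 was at 19.19, 17.63 and 16.33 FPKM in the controls, at 18.56, 15.55 and 16.44 FPKM after E2F1 siRNA and at 14.11, 12.43 and 13.43 FPKM after E2F3 siRNA. Its 3 E2F3 siRNA libraries were the lowest of the 9, with differences of -0.38 (SE 0.08, adjusted p = 0.0054) from control and -0.32 (SE 0.08, adjusted p = 0.0117) from E2F1 siRNA. TOP3A was at 29.16, 27.60 and 28.05 FPKM in the controls, at 28.48, 28.00 and 27.75 FPKM after E2F1 siRNA and at 26.68, 22.81 and 22.57 FPKM after E2F3 siRNA. The differences were -0.23 (SE 0.07, adjusted p = 0.0197) and -0.22 (SE 0.07, adjusted p = 0.0197), and replicate 1 lay closest to the other groups. The first was not called without control replicate 1 (-0.21, adjusted p = 0.0673), E2F3 siRNA replicate 2 (-0.20, adjusted p = 0.0627) or E2F3 siRNA replicate 3 (-0.19, adjusted p = 0.0703). The second was not called without E2F1 siRNA replicate 1 (-0.21, adjusted p = 0.0571), E2F3 siRNA replicate 2 (-0.19, adjusted p = 0.0638) or E2F3 siRNA replicate 3 (-0.18, adjusted p = 0.0721). RMI2 averaged 21.1, 23.0 and 22.4 FPKM and was not called.

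MUS81 and EME1 form a nuclease that cuts branched DNA. MUS81 was at 21.68, 21.06 and 24.54 FPKM in the controls, at 24.48, 26.43 and 23.05 FPKM after E2F1 siRNA and at 19.73, 19.01 and 17.29 FPKM after E2F3 siRNA. The E2F3 siRNA libraries lay below all others, by 0.25 (SE 0.08, adjusted p = 0.0291) from control and by 0.38 (SE 0.08, adjusted p = 0.00286) from E2F1 siRNA. The first was not called without control replicate 3 (-0.19, adjusted p = 0.104), E2F3 siRNA replicate 2 (-0.26, adjusted p = 0.0508) or E2F3 siRNA replicate 3 (-0.20, adjusted p = 0.0986), nor with no filter on low values (adjusted p = 0.07). CFL1 overlaps 13.9% of the exon bases of MUS81 on the other strand. It averaged 1336, 1635 and 1356 FPKM in control, E2F1 siRNA and E2F3 siRNA libraries. Whether the counting used strand is not given, so reads of CFL1 and MUS81 may not be told apart. EME1 was at 10.27, 10.21 and 8.67 FPKM in the controls, at 8.55, 10.66 and 9.47 FPKM after E2F1 siRNA and at 13.83, 10.17 and 11.54 FPKM after E2F3 siRNA. The groups overlapped and no difference was called. LRRC59 overlaps 16.4% of the exon bases of EME1 on the other strand. It averaged 122.9, 147.4 and 128.1 FPKM in control, E2F1 siRNA and E2F3 siRNA libraries, so reads of LRRC59 and EME1 may not be told apart either. Without E2F3 siRNA replicate 2 EME1 was called higher after E2F3 siRNA than in control (0.35, adjusted p = 0.0462) and than after E2F1 siRNA (0.37, adjusted p = 0.0308), the latter also with upper-quartile scaling (0.32, adjusted p = 0.0424).

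The Fanconi core genes moved in both directions, and FANCE was called in all 3 comparisons. The protein FANCE links the core complex to FANCD2. FANCE was at 12.02, 11.65 and 11.44 FPKM in the controls, at 14.52, 15.10 and 15.80 FPKM after E2F1 siRNA and at 7.47, 8.50 and 8.24 FPKM after E2F3 siRNA. The groups did not overlap in any comparison. FANCE rose by 0.34 (SE 0.07, adjusted p = 0.00237) after E2F1 siRNA and fell by 0.49 (SE 0.07, adjusted p = 0.000323) after E2F3 siRNA. Its direct difference of -0.83 (SE 0.07, adjusted p = 6.84e-06) had the largest size among the called differences of the 37 genes. FANCE was called in all 3 comparisons under each of the 17 alternatives and at an adjusted p under 0.01.

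FANCG, a scaffold of the core complex, was at 27.68, 24.44 and 26.11 FPKM in the controls, at 27.44, 27.04 and 23.05 FPKM after E2F1 siRNA and at 20.14, 18.13 and 21.52 FPKM after E2F3 siRNA. It fell by 0.37 (SE 0.08, adjusted p = 0.0069) after E2F3 siRNA, with a direct difference of -0.36 (SE 0.08, adjusted p = 0.00673). FANCM, the motor protein that anchors the complex to DNA, was at 5.42, 6.13 and 6.34 FPKM in the controls, at 6.23, 6.47 and 5.99 FPKM after E2F1 siRNA and at 5.30, 3.86 and 4.70 FPKM after E2F3 siRNA. The E2F3 siRNA libraries were the lowest in both genes. The direct difference of FANCM was -0.37 (SE 0.10, adjusted p = 0.0154) and that from control had an adjusted p of 0.0378. The latter was not called without control replicate 2 (adjusted p = 0.0944), control replicate 3 (0.115), E2F1 siRNA replicate 1 (0.0523), E2F3 siRNA replicate 2 (-0.21, 0.115) or E2F3 siRNA replicate 3 (0.0696). It was also lost with no filter (adjusted p = 0.0937) and in a fit of the 6 libraries compared (0.0667).

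FANCF, an adaptor of the core complex and the lowest of the 37 genes, was at 1.65, 1.61 and 1.54 FPKM in the controls, at 2.04, 1.79 and 2.04 FPKM after E2F1 siRNA and at 2.25, 2.37 and 2.37 FPKM after E2F3 siRNA. The groups did not overlap, and the rise after E2F3 siRNA was 0.36 (SE 0.09, adjusted p = 0.0136), while that of 0.18 after E2F1 siRNA was not called (adjusted p = 0.15). FANCC, another core subunit, went from 9.12 ± 0.475 FPKM to 11.8 ± 1.65 FPKM after E2F3 siRNA (0.33, SE 0.11, adjusted p = 0.0478). FANCL, the ubiquitin ligase subunit, went from 26.0 ± 0.777 FPKM to 30.0 ± 2.82 FPKM after E2F1 siRNA (0.20, SE 0.07, adjusted p = 0.0497). Neither call was stable. That of FANCC was lost with any 1 library left out, except E2F1 siRNA replicate 1 or E2F3 siRNA replicate 3. The adjusted p then ran from 0.0528 without E2F1 siRNA replicate 3 to 0.151 without E2F3 siRNA replicate 2. The FANCC call was also lost with RLE scaling (0.0742) and with no filter (0.123). That of FANCL was lost with any 1 library left out, except E2F1 siRNA replicate 2. The adjusted p then ran from 0.0515 without E2F3 siRNA replicate 2 to 0.166, at a difference of 0.13, without E2F1 siRNA replicate 3. The FANCL call was also lost with RLE (0.096) or upper-quartile (0.114) scaling, with no filter (0.11) and with the 6 libraries alone (0.0625). FANCA, FANCB and UBE2T, the ubiquitin-conjugating enzyme that works with FANCL, were not called. UBE2T averaged 93.1, 90.9 and 87.6 FPKM, FANCA 22.3, 18.8 and 20.3 FPKM, and FANCB 7.74, 8.76 and 7.15 FPKM. With RLE scaling UBE2T was called lower after E2F3 siRNA (-0.13, adjusted p = 0.0209). FANCB was called in the direct comparison without E2F3 siRNA replicate 1 (-0.46, adjusted p = 0.011). On the other strand, VRK2 shares 18.7% of the exon bases of FANCL and ZNF276 23.6% of those of FANCA. Whether the counting used strand is not given, so reads of these pairs may not be told apart.

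FANCD2, the protein that the core complex marks with ubiquitin together with FANCI, fell after both siRNAs. It was at 17.52, 20.59 and 19.57 FPKM in the controls, at 15.81, 14.68 and 15.35 FPKM after E2F1 siRNA and at 16.47, 12.94 and 14.27 FPKM after E2F3 siRNA. All knockdown libraries lay below the controls, by 0.31 (SE 0.09, adjusted p = 0.0208) and 0.38 (SE 0.09, adjusted p = 0.00795). The fall after E2F1 siRNA was not called without control replicate 2 (-0.26, adjusted p = 0.0738), control replicate 3 (-0.30, adjusted p = 0.0601) or E2F1 siRNA replicate 2 (-0.28, adjusted p = 0.0647), nor with no filter (adjusted p = 0.0585). FANCI was at 86.66, 86.09 and 86.14 FPKM in the controls, at 85.50, 73.00 and 78.28 FPKM after E2F1 siRNA and at 74.81, 85.97 and 72.14 FPKM after E2F3 siRNA. The controls were close together and above every knockdown library, yet 1 library of each knockdown was within 1 FPKM of them. The differences of -0.13 (adjusted p = 0.187) and -0.15 (adjusted p = 0.119) were not called, and that of E2F3 siRNA was without its replicate 2 (-0.23, adjusted p = 0.021).

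BRIP1, a helicase that binds BRCA1, was at 10.31, 10.51 and 10.74 FPKM in the controls, at 10.92, 11.15 and 11.74 FPKM after E2F1 siRNA and at 9.70, 8.38 and 7.93 FPKM after E2F3 siRNA. The 3 groups did not overlap. The direct difference was -0.35 (SE 0.08, adjusted p = 0.00445) and the fall from control -0.26 (SE 0.08, adjusted p = 0.0244). The fall was not called without control replicate 1 (adjusted p = 0.0508), control replicate 2 (0.0564), control replicate 3 (0.0721), E2F3 siRNA replicate 2 (0.0672) or E2F3 siRNA replicate 3 (-0.20, 0.0841). USP1, which removes the ubiquitin from FANCD2, averaged 46.5 and 47.4 FPKM in control and E2F1 siRNA libraries, was at 41.76 to 47.51 FPKM after E2F3 siRNA, and was not called.

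Another 52 genes of the same pathways, taken from a list of further subunits and cofactors, were tested in the same fit. After E2F1 siRNA 10 rose and 5 fell, after E2F3 siRNA 4 rose and 7 fell, and in the direct comparison 7 were higher and 19 lower with E2F3 siRNA. These are 19.2% and 9.62%, 7.69% and 13.5%, and 13.5% and 36.5% of the list, beside 20.5% and 17.3%, 21.1% and 16.4%, and 23.5% and 22.0% of all tested genes. Of these shares, the 36.5% lower in the direct comparison was above that of all tested genes and the others were below. With 1 library left out, the rises after E2F1 siRNA ran from 4 (without E2F1 siRNA replicate 3) to 12, and the falls from 3 (without control replicate 2, or replicate 1 or 3 of E2F1 siRNA) to 5. The median differences of the list were 0.12, -0.03 and -0.17. The largest called rises after E2F1 siRNA were FIGNL1, which disassembles the recombinase filament (18.2 to 26.6 FPKM, 0.52, adjusted p = 0.000748), and SPIDR, a scaffold of recombination (0.35, adjusted p = 0.00515). The largest falls were ZSWIM7, a recombination cofactor (5.75 to 3.43 FPKM, -0.60, adjusted p = 0.00767), and REV3L, the catalytic subunit of a translesion polymerase (-0.37, adjusted p = 0.0042). ZSWIM7 and REV3L differed from control by 0.11 (adjusted p = 0.566) and 0.05 (adjusted p = 0.626) after E2F3 siRNA.

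After E2F3 siRNA the largest falls were those of SLX1B, a junction nuclease subunit, and RTEL1, a helicase that takes recombination intermediates apart. SLX1B was at 26.97, 19.99 and 23.76 FPKM in the controls, at 21.09, 21.32 and 20.75 FPKM after E2F1 siRNA and at 7.47, 9.91 and 7.30 FPKM after E2F3 siRNA (-1.41 from control, adjusted p = 2.03e-05, and -1.27 from E2F1 siRNA, adjusted p = 2.59e-05). RTEL1 was at 9.46, 8.61 and 13.95 FPKM in the controls, at 11.73, 13.13 and 12.48 FPKM after E2F1 siRNA and at 3.56, 4.49 and 4.69 FPKM after E2F3 siRNA (-1.13, adjusted p = 0.000352, and -1.36, adjusted p = 7.72e-05). Both values are uncertain, because reads may be split among overlapping or like genes. SLX1A, a near-identical copy of SLX1B, averaged 4.07, 4.69 and 4.66 FPKM, and the read-through genes SLX1B-SULT1A4 and RTEL1-TNFRSF6B cover 63.6% and 70.2% of their exon bases. The largest rises were ABRAXAS1, a scaffold of a BRCA1 complex (4.58 to 6.78 FPKM, 0.48, adjusted p = 0.025), and ERCC1, a nuclease subunit that acts in crosslink repair (0.32, adjusted p = 0.00354). The call of ABRAXAS1 was lost with control replicate 1 (adjusted p = 0.0751) or 2 (0.0511) left out, or replicate 1 (0.067), 2 (0.0575) or 3 (0.0519) of E2F3 siRNA, and with no filter (0.0791). In the direct comparison the largest rises were ZSWIM7 (0.71, adjusted p = 0.0025) and BABAM2, a subunit of the same BRCA1 complex (9.43 against 15.0 FPKM, 0.62, adjusted p = 7.28e-05). On the other strand, MRPS18C shares 25.2% of the exon bases of ABRAXAS1 and CD3EAP 28.6% of those of ERCC1. MRPS18C went from 53.3 to 44.9 FPKM and CD3EAP from 16.3 to 22.2 FPKM after E2F3 siRNA. MRPL33, at 101 FPKM after E2F1 siRNA and 123 FPKM after E2F3 siRNA, shares 9.55% of those of BABAM2 on the same strand. Reads of these pairs may not be told apart.

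Genes of end joining, the repair route that does not copy a template, were counted beside them. Of the 15 of 16 that passed the filter, 4 rose and 2 fell after E2F1 siRNA, 3 rose and 2 fell after E2F3 siRNA, and 1 was higher and 3 were lower in the direct comparison. These small counts moved by up to 2 genes with 1 library left out, and the 2 falls after E2F3 siRNA became 0 without control replicate 1, control replicate 2 or E2F3 siRNA replicate 3. In the 3 comparisons 40.0%, 33.3% and 26.7% of the 15 genes were called, beside 37.8%, 37.6% and 45.5% of all tested genes. Cell cycle genes were counted in the same way. Of 18 S phase genes, 9 rose and 4 fell after E2F1 siRNA (median 0.23), 2 rose and 8 fell after E2F3 siRNA (median -0.19), and 2 were higher and 14 lower in the direct comparison (median -0.40). Of 17 genes of G2 and M phase, 13 rose and 1 fell after E2F1 siRNA (median 0.50), 2 rose and 3 fell after E2F3 siRNA (median -0.02), and 0 were higher and 12 lower in the direct comparison (median -0.52), where 0 were higher at an unadjusted p below 0.05 in limma as well. Called in either direction were 72.2%, 55.6% and 88.9% of the S phase genes. For the genes of G2 and M phase the shares were 82.4%, 29.4% and 70.6%. Of these shares, the 29.4% after E2F3 siRNA was below that of all tested genes and the others were above. Many recombination genes are expressed mainly in S and G2 phase. In bulk RNA, fewer cells in a phase and less RNA per cell cannot be told apart, and the part of cell cycle phase in the differences of the repair genes was not tested.

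**Figure D4:**
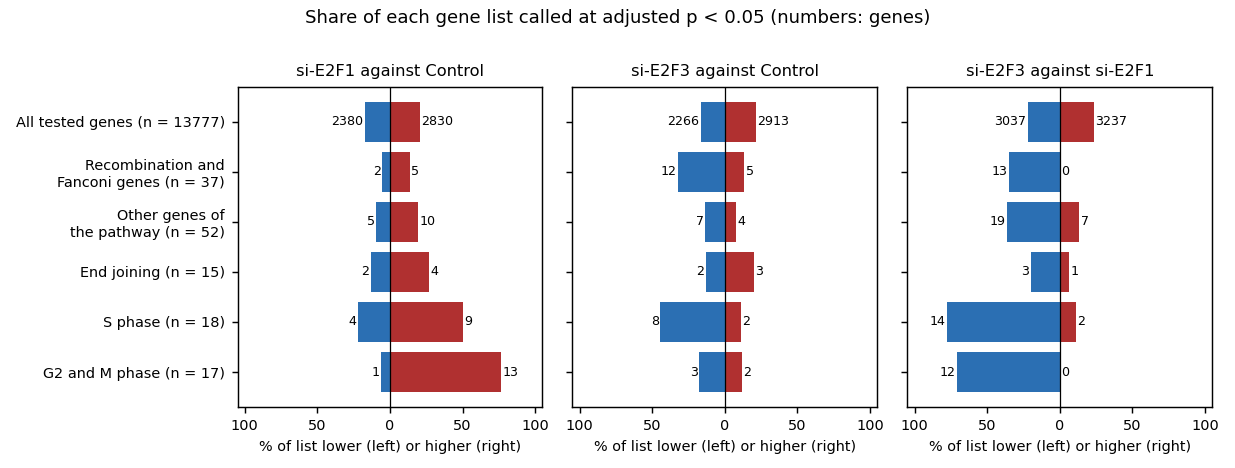
Share of each gene list called higher (right of 0, red) or lower (left of 0, blue) at an adjusted p below 0.05 in the 3 comparisons, with the number of genes at each bar. In the direct comparison 13 of the 37 repair genes, 14 of 18 S phase genes and 12 of 17 genes of G2 and M phase were lower with E2F3 siRNA. Of all tested genes 22.0% were lower there.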

How the data were processed

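Each of the 9 libraries had 1 table of FPKM values per gene with 2 decimals, deposited by the authors and normalized to transcript length and library size. The submitters' processing notes name Trimmomatic, TopHat, HISAT2, HTSeq, DESeq and the build GRCh38, with no order or role. Per the labels' protocols, RNA was taken with a mirVana kit and libraries followed Illumina protocols. The sources used here give no annotation, strandedness or depth. Of 59107 entries per table, 58381 with Ensembl identifiers were kept, and 56933 matched GENCODE 29 exactly and 1328 without the version. Genes that reached 1 FPKM in 3 or more of the 9 libraries were fitted with limma 3.58.1 (R 4.3.3, trend) on log2(FPKM + 1), with group means over all libraries, a two-sided moderated test and Benjamini-Hochberg adjustment over 13777 genes. FPKM are not counts, so no count test was used. The procedure was tested on simulated data, set up as E2F1 siRNA against control. Among 50 genes given a shift of 1.25 times, the procedure found only 34%, so small real differences can go uncalled. Recovery rose to 82% where the shift was 1.5 times, and was 96% or more for the larger shifts tried. Of the 166 calls made there, 11 were of genes left unchanged. The simulation called 166 of 13398 genes, whereas the real comparison of E2F1 siRNA with control called 5210 of 13777. With fewer genes changed, the adjusted threshold was stricter in the simulation. Its recoveries therefore do not give the share of true differences found in the real data. The members and lists were chosen with earlier results of these data known. Values in every library are given for the 5 called members with the largest differences in each comparison, for up to 2 more per role, and for BRCA1, added after its values were seen. Other pathway genes are named for the 2 largest called rises and falls per comparison. Markers of squamous epithelium, leukocytes, endothelium and fibroblasts were summed. Alternatives were other scalings, filters, a pseudocount of 0.1, only the 6 libraries compared, a replicate block, robust fitting, each library left out, and an adjusted p under 0.01. Gene lists are described by counts and medians, with no set test.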

Additional observations from a re-analysis of the deposited data

Results flagged for a closer look

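FANCE was the 1 gene of the 37 called in opposite directions against the shared controls. Its difference between E2F3 and E2F1 siRNA, the test of that contrast, was -0.83 on the log2(FPKM + 1) scale (adjusted p = 6.84e-06, limma). All 3 E2F1 siRNA libraries lay above and all 3 E2F3 siRNA libraries below the controls.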

How the results depend on the processing

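Of the calls, 3 of 7 after E2F1 siRNA (RAD50, RAD51C and FANCE), 11 of 17 after E2F3 siRNA and 12 of 13 in the direct comparison were kept under each of the 17 alternatives at the same threshold that tested the gene, and FANCF was not tested at a filter of 5 FPKM. The genes that rose after E2F1 siRNA numbered 3 with no filter, 3 at an adjusted p under 0.01 and 3 to 6 with 1 library left out. Those that fell numbered 1, 0 and 1 to 3. At an adjusted p under 0.01 the 5 rises and 12 falls after E2F3 siRNA became 2 and 7, and leaving out 1 library left 7 to 12 falls, with 7 without E2F3 siRNA replicate 3. Genes higher in the direct comparison numbered 3 with upper-quartile scaling, 2 with a filter of 5 FPKM, 2 with the replicate block and 0 to 3 with 1 library left out. Over all tested genes, the rises numbered 1849 after E2F1 siRNA and 1723 after E2F3 siRNA at an adjusted p under 0.01. No difference that changed sign was called before or after, and that of BARD1 in the direct comparison was the largest, at -0.37 without E2F3 siRNA replicate 3. With RLE scaling DNA2 went to -0.0017 after E2F3 siRNA. With upper-quartile scaling USP1 went to -0.0061 after E2F1 siRNA, and in the direct comparison DNA2 went to 0.035, FANCI to 0.025 and RMI2 to 0.013. With 1 library left out, the log2 differences after E2F1 siRNA ran from -0.018 to 0.13 for DNA2, -0.096 to 0.048 for EME1, -0.0345 to 0.078 for USP1, -0.026 to 0.0125 for TOP3A, -0.0014 to 0.095 for FANCM, -0.0499 to 0.013 for RAD54B and -0.059 to 0.062 for FANCG. After E2F3 siRNA they ran from -0.17 to 0.038 for PALB2, -0.061 to 0.0135 for RAD51C, -0.038 to 0.0903 for DNA2, -0.27 to 0.0998 for BRCA2, -0.11 to 0.0052 for USP1, -0.30 to 0.0406 for FANCB and -0.23 to 0.031 for FANCA. In the direct comparison they ran from -0.11 to 0.016 for FANCL, -0.097 to 0.042 for DNA2, -0.37 to 0.58 for BARD1, -0.099 to 0.034 for FANCI, -0.16 to 0.0053 for FANCD2, -0.061 to 0.0088 for RMI2 and -0.0005 to 0.17 for FANCA. RLE scaling gave 11 falls among the other 52 pathway genes after E2F3 siRNA, against 7. No pairing by replicate number was seen (correlations of same-numbered libraries -0.106 to 0.112, other pairs -0.077 to 0.069, and 0 of 9 best with their own number). Such small correlations cannot exclude that same-numbered libraries were handled together, and the labels do not say. The replicate block gave 5 rises and 2 falls after E2F1 siRNA, 4 and 11 after E2F3 siRNA, and 2 and 13 in the direct comparison. With it BRCA1 after E2F1 siRNA (adjusted p = 0.0492), BLM (0.0445) and XRCC3 (0.0424) after E2F3 siRNA, and RAD51B (0.0139) and XRCC2 (0.0364) in the direct comparison were called, while FANCL (0.057) after E2F1 siRNA and RAD54B (0.0662), MUS81 (0.0553), FANCC (0.0683) and FANCM (0.0656) after E2F3 siRNA were not. The cause of these shifts was not tested. Depth is not given, so the precision of FANCF, at 1.54 to 2.37 FPKM, rests on the spread between libraries alone.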

Other observations

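Spread within groups differed among the repair genes. After BARD1, the genes with the largest within-group SD on the log2 scale were RAD51B (0.34, above 98.2% of 1673 genes of like control level) and BRCA2 (0.27, above 89.2% of 1089 such genes).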
